A study of Mus musculus with 8 samples.

Results

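Keratin genes were followed in intervertebral discs of mice with proteoglycan-induced spondylitis, an autoimmune inflammation of the spine. They were taken as every gene with a symbol of Krt, a number and at most 1 letter that a probe set names alone in the array's annotation. This gave 48 keratin genes, measured by 61 of 45101 probe sets, among 18193 genes in all. The 5 keratins of simple epithelia and of the nucleus pulposus (Krt7, Krt8, Krt18, Krt19 and Krt20, 7 probe sets) were set against the 43 others (54 probe sets), which belong mainly to skin, mucosa and hair. One more probe set names both Krt17 and Krt14 and was left out; its mean was lower by 0.11 on the log2 scale in immunized discs.

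Total RNA came from lumbar discs of female BALB/c mice, 5 immunized and 3 naive samples, each of 6 pooled discs (L1 to L6). Immunized mice had received cartilage proteoglycan (100 µg of protein) with 2 mg of DDA, an adjuvant, on days 0, 21 and 42, and naive mice were of matching age. No group given adjuvant alone was analysed here, so antigen and adjuvant cannot be told apart. The titles call the replicates biological, and p-values measure the spread between these samples. The descriptions of immunized replicate 1 and naive replicate 3 each join 2 sample numbers, and the labels do not say what the joining means.

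Keratins are the intermediate filament proteins of epithelial cells. A type I (acidic) and a type II (basic) keratin assemble together into filaments, which are anchored at desmosomes between cells and at hemidesmosomes below them. Each epithelium makes its own pairs, and Krt8 with Krt18 is the typical pair of simple, single-layered epithelia. The nucleus pulposus, the soft core of the disc, derives from the notochord, and its cells are unusual among skeletal cells in making Krt8, Krt18 and Krt19. In a bulk sample, fewer cells of a type and less RNA per cell cannot be told apart.

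The promoters of the simple epithelial keratins are shown because these genes carried the differences below. The RefSeq promoter table (GRCm38.p6) matched 4 of the 6 genes looked up, the simple epithelial keratins and Krt80. Each sequence is the 250 bases before the transcription start, read 5′ to 3′ on the gene's strand. Capitals mark matches, on either strand, to a TATA box (TATAAA), an AP-1 site (TGANTCA), the E-box bound by Snail and Zeb factors (CAGGTG) and an Sp1 GC box (GGGCGG). The Krt7 promoter lies at chr15:101412153-101412402 on the plus strand, that of Krt8 at chr15:102004343-102004592 on the minus strand and that of Krt18 at chr15:102027966-102028215 on the plus strand. The Krt20 promoter lies at chr11:99438154-99438403 on the minus strand.
Krt7: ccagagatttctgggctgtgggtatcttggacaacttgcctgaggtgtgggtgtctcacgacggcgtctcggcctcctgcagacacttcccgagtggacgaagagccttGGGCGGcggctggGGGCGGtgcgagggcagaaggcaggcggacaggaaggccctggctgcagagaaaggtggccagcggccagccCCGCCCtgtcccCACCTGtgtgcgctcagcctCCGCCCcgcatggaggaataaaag
Krt8: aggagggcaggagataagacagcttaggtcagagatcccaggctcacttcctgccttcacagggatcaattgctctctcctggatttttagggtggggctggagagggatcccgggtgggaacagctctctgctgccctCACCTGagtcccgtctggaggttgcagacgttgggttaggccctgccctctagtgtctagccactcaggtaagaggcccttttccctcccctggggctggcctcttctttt
Krt18: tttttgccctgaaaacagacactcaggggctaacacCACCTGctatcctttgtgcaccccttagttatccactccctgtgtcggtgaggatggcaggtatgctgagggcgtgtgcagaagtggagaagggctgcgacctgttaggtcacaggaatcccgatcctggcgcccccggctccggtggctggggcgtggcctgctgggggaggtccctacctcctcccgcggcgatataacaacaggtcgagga
Krt20: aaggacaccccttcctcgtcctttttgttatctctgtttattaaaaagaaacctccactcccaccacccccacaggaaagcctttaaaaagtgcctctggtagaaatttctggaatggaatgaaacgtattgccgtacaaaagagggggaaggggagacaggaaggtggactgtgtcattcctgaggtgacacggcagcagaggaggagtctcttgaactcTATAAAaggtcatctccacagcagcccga
Krt20 held a TATA box whose 5′ base lies 29 bases before the start, a match that 12.4% of the 32851 promoters in the table have. Krt7, Krt8 and Krt18 each held 1 E-box match, 44, 111 and 214 bases before the start, against 17.2% of all promoters with any. Krt7 also held 4 GC box matches (32.7% of promoters hold any), and no letters of an AP-1 site were found in these windows (6.75% of promoters hold one). No matches overlapped.

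Most keratins differed little between immunized and naive discs, and the larger differences lay in 6 genes, the 5 simple epithelial keratins and Krt80. Expression was compared on the log2 scale, where a difference of 1 is a doubling, with limma and Benjamini-Hochberg adjustment over all 18193 genes. At an adjusted p under 0.05, 8 of the 48 keratins (16.7%) were lower in immunized discs, against 4.68% of all genes. No keratin was higher, against 4.46% of all genes. At an unadjusted p under 0.05, 17 keratins were lower and 1 was higher, against 18.2% and 12.9% of all genes. In 14 keratins (29.2%) every immunized sample lay below every naive sample, a pattern found in 14.0% of all genes, and the opposite pattern was found in 0 keratins and 9.39% of all genes. The median difference was -0.14 over the keratins and -0.04 over all genes. Of the 48 keratin differences 40 were negative, against 10208 of the 18193 over all genes.

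**Figure D1:**
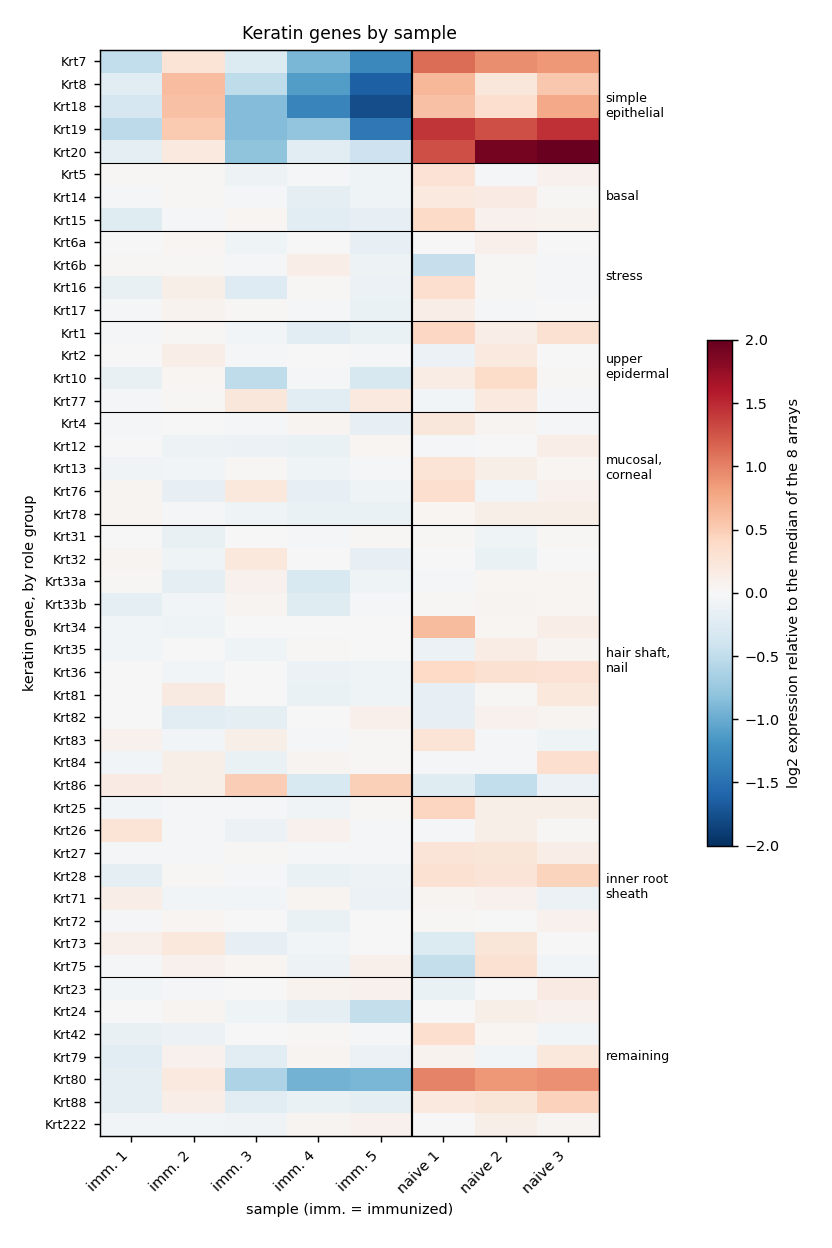
Expression of the 48 keratin genes in 5 immunized and 3 naive disc samples (columns), as log2 values centred on each gene's median over 8 arrays (colour), with genes grouped by role. The strong colours sit in the rows of the simple epithelial keratins and Krt80, and immunized replicate 2 is the palest or warmest of the immunized columns in those rows.

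The samples differed within groups as well. On the first principal component over all genes (52.2% of the variance), immunized replicate 2 scored 5.77 and the other immunized samples -32.22 to -14.43, against 28.14 to 32.21 in naive samples. The number of keratins called moved with single samples. It was 1, 10, 6, 7 and 4 without immunized replicates 1 to 5. Without naive replicates 1 to 3 it was 1, 0 and 1. All were lower except 1 of the 7. Over all genes the calls, 1663 with all samples, were 148, 3003, 758, 868 and 394 without immunized replicates 1 to 5. They were 374, 21 and 176 without naive replicates 1 to 3. Without immunized replicate 1 and naive replicate 3 together, the samples with joined numbers, no keratin and none of the 18193 genes passed in limma. There 13 keratins were lower at an unadjusted p under 0.05, and 14 were without naive replicate 2. Shares of all genes at an unadjusted p were not counted for these omissions. Omitting both samples that stood apart in the principal components, immunized replicate 2 and naive replicate 1, left 8 keratins called, among them Krt18 in place of Krt1.

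Of the 5 simple epithelial keratins, Krt7, Krt19 and Krt20 fell at the threshold (60.0%), and Krt8 and Krt18 did not pass. All 5 were lower at an unadjusted p under 0.05, and their differences ran from -2.02 to -1.06 with a median of -1.51. The other 43 keratins had 5 that fell (11.6%), a median of -0.12, and differences under 0.5 in size in 42. The per-sample median over the 5 genes was -0.34, 0.53, -0.80, -0.92 and -1.43 in immunized replicates 1 to 5, against 1.12, 0.93 and 0.87 in naive replicates 1 to 3. Naive samples lay close together, immunized samples were spread over a wide range below them, and replicate 2 was the nearest to the naive samples. The same median over the other keratins lay between -0.08 and -0.00 in immunized and between 0.04 and 0.08 in naive samples.

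**Figure D2:**
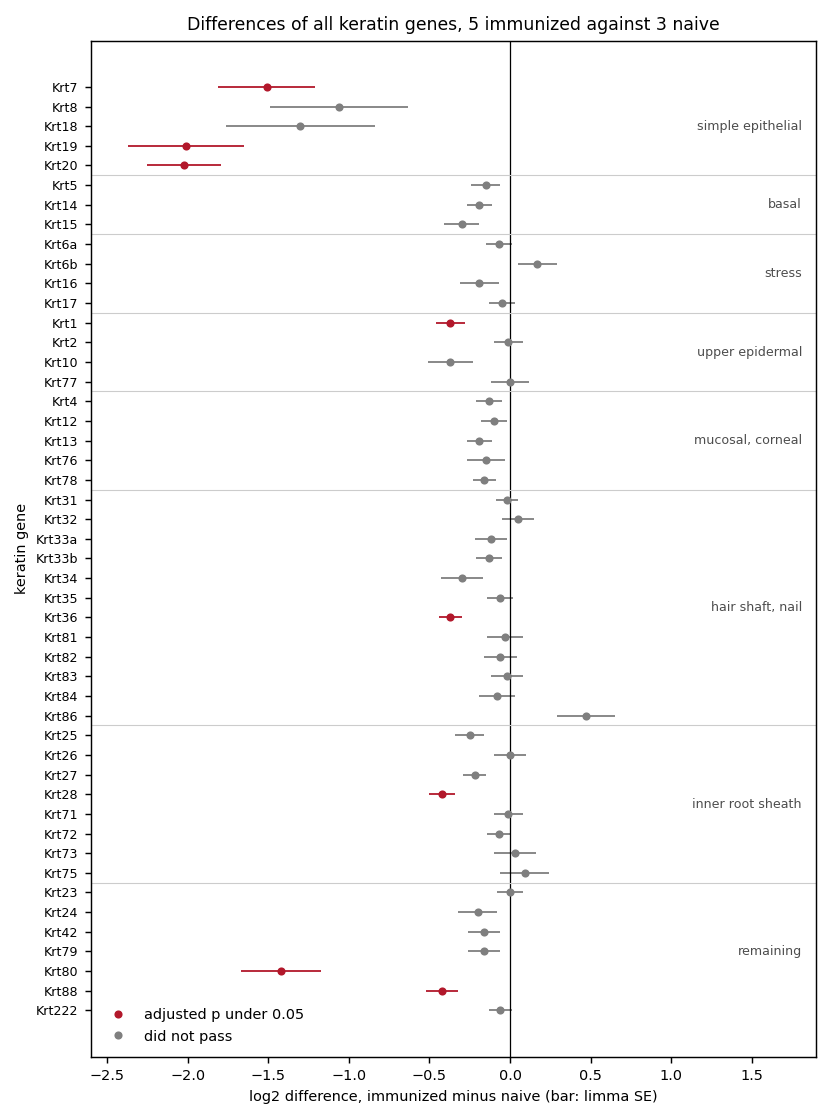
Difference in log2 expression, immunized minus naive, for each of the 48 keratin genes, grouped by role. Bars show the limma standard error on either side. The bars of the simple epithelial keratins and Krt80 lie wholly below 0, and nearly all other genes lie within 0.5 of 0.

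Krt19, a type I keratin of ducts and glands that also marks nucleus pulposus cells, stood at -0.53, 0.53, -0.87, -0.79 and -1.43 in immunized replicates 1 to 5, against 1.43, 1.29 and 1.46 in naive replicates 1 to 3. The naive samples were nearly level, and even the highest immunized sample, replicate 2, lay well below them. Krt19 fell by 2.01 ± 0.36 (SE, 5 immunized against 3 naive samples), or 4.03-fold (adjusted p = 0.0214, limma). The call was lost without immunized replicate 1 (adjusted p = 0.0615) and without naive replicates 1, 2 or 3 (0.0613, 0.0757 and 0.0618), while the difference stayed between -2.30 and -1.81.

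Krt20, a type I keratin known from intestinal epithelium, urothelium and Merkel cells of the skin, stood at -0.20, 0.20, -0.80, -0.23 and -0.42 in immunized discs, against 1.29, 1.92 and 1.98 in naive discs. The immunized samples lay closer together than in the other simple keratins, and a wide gap parted them from the naive samples. Krt20 fell by 2.02 ± 0.23, or 4.06-fold (adjusted p = 0.00811), and among the keratins it had the lowest adjusted p. Leaving out naive replicate 2 raised the adjusted p to 0.0521, and each of the other 7 omissions kept the call. In the trended and robust model Krt20 did not pass (adjusted p = 0.0626), while Krt7 and Krt19 did (both 0.0317), and with the replicate block its adjusted p was 0.0846.

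Krt7, a type II keratin of glandular and ductal epithelia, stood at -0.50, 0.27, -0.27, -0.92 and -1.29 in immunized discs, against 1.12, 0.93 and 0.87 in naive discs. Replicate 2 was again the highest immunized sample and replicate 5 the lowest, and the groups did not overlap. Krt7 fell by 1.51 ± 0.30, or 2.86-fold (adjusted p = 0.0269). The adjusted p was 0.0731 without immunized replicate 1 and 0.0759, 0.0848 and 0.0666 without naive replicates 1, 2 and 3.

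Krt8 and Krt18, the obligate pair of simple epithelia, had differences whose test did not pass. Krt8 stood at -0.23, 0.61, -0.51, -1.11 and -1.63 in immunized discs, against 0.66, 0.23 and 0.54 in naive discs. Krt18 stood at -0.34, 0.59, -0.86, -1.32 and -1.77 in immunized discs, against 0.58, 0.34 and 0.75 in naive discs. In both genes 4 immunized samples lay below all naive samples in the same order, while immunized replicate 2 lay among the naive samples. The difference was -1.06 ± 0.43 for Krt8 (95% confidence interval -2.03 to -0.08, adjusted p = 0.136) and -1.30 ± 0.46 for Krt18 (-2.33 to -0.27, adjusted p = 0.0959). Without immunized replicate 2 the differences were -1.35 for Krt8 (adjusted p = 0.0252) and -1.63 for Krt18 (adjusted p = 0.0127). That omission also raised the lower calls over all genes from 851 to 1710. No other omission of 1 sample called either gene, with adjusted p up to 0.282 for Krt8 and 0.203 for Krt18. The 3 probe sets of Krt8 gave -1.03, -1.13 and -1.01.

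**Figure D3:**
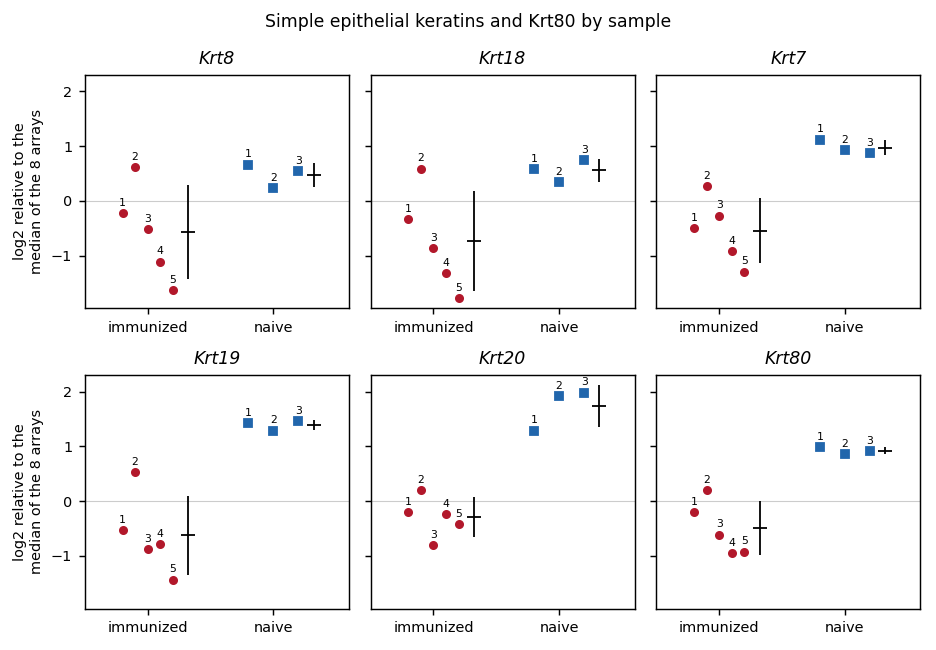
Log2 values, centred on each gene's 8-array median, of Krt7, Krt8, Krt18, Krt19, Krt20 and Krt80 in each immunized and naive sample (points, numbered by replicate), with the mean and SD of each group beside them. Immunized replicate 2 is the top immunized point in all 6 panels, and it overlaps the naive points only in the panels of Krt8 and Krt18.

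Across these genes the immunized samples kept much the same order. Replicate 2 was highest in all 5 simple epithelial keratins and in Krt80, and replicate 5 was lowest in Krt7, Krt8, Krt18 and Krt19. The exceptions at the low end were Krt20, lowest in replicate 3, and Krt80, lowest in replicate 4. In Krt18 the immunized mean was -0.74 ± 0.91 (SD, n = 5), against 0.56 ± 0.21 in naive samples (SD, n = 3). Krt19 had -0.62 ± 0.72 (SD, n = 5) in immunized and 1.39 ± 0.09 (SD, n = 3) in naive samples. In both genes the immunized samples were thus more widely spread.

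Levels cannot be compared between genes here, because the deposited values are centred on each probe set's median. A coarse level of the lowest of the 8 arrays could still be read. On the log2 scale it reached 8 or more in the probe sets of Krt8, Krt18 and Krt19 and from 4 to 8 in those of Krt7, Krt20 and Krt80. Among the 54 probe sets of the other keratins it was 8 or more in 4, from 4 to 8 in 39 and below 4 in 11. Over all probe sets of the array the shares were 31.7%, 57.4% and 10.9%.

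Krt80 is a type II keratin made in many epithelia, and of the other keratins it had the largest difference. It stood at -0.20, 0.20, -0.61, -0.95 and -0.92 in immunized discs, against 0.99, 0.86 and 0.92 in naive discs. The naive samples lay within a narrow band above every immunized sample. Krt80 fell by 1.42 ± 0.25, or 2.68-fold (adjusted p = 0.0208); without immunized replicate 1 the adjusted p was 0.0517, and without naive replicates 1, 2 and 3 it was 0.061, 0.0741 and 0.0594. Setting Krt80 aside, a choice made after its value was seen, the remaining 42 keratins had a median of -0.11. None exceeded 0.47 in size on either side. Of the 42, 4 fell (9.52%), against 4.68% of all genes.

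Gene order places Krt80 beside a simple epithelial keratin. Of the 27 keratin genes that the RefSeq table lists on chromosome 15, Krt80 and Krt7 are the first and the second, and Krt8 and Krt18 the last pair at the other end of the cluster. Krt88, at the fourth place, also fell, while Krt81 at the fifth had a difference of -0.03. Krt18 is the only type I gene listed there. On chromosome 11, with 27 listed type I genes, Krt20 lies between Krt12 (-0.10) and Krt23 (0.00), and Krt19 lies next to Krt15 (-0.30); these neighbours did not pass the test. Taking the keratins by type, 4 of 25 type I and 4 of 23 type II genes fell, with medians of -0.19 and -0.07.

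Among keratins of stratified epithelia, few passed the test and the differences were small. None of the basal keratins Krt5, Krt14 and Krt15, which build the filaments of proliferating keratinocytes, passed (-0.15 ± 0.09, -0.19 ± 0.08 and -0.30 ± 0.11, adjusted p = 0.259, 0.135 and 0.0935). Krt14 and Krt15 nevertheless had every immunized sample below every naive one. The 4 keratins of wounded and hyperproliferative skin, Krt6a, Krt6b, Krt16 and Krt17, had differences of -0.07, 0.17, -0.19 and -0.05, none past an unadjusted p of 0.05. The probe sets of Krt6a disagreed in sign (-0.26, 0.18 and -0.14).

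Krt1, the type II keratin of the upper epidermis, stood at -0.03, 0.03, -0.05, -0.23 and -0.13 in immunized discs, against 0.42, 0.13 and 0.30 in naive discs. The groups did not overlap, though the gap was narrow. Krt1 fell by 0.37 ± 0.09, or 1.29-fold (adjusted p = 0.0444), a call that was kept only without immunized replicate 2 (adjusted p = 0.0303) and lost in the other 7 omissions of 1 sample (0.0739 to 0.11). Its partner Krt10 had the same difference with a wider error, -0.37 ± 0.14 (adjusted p = 0.11). Krt2, made in the uppermost living layers, and Krt77 differed by -0.01 and 0.00. The mucosal and corneal keratins Krt4, Krt12, Krt13, Krt76 and Krt78 lay between -0.19 and -0.10, with none past the threshold. Krt13 (-0.19 ± 0.08, adjusted p = 0.127) had probe sets that gave -0.33, -0.30 and 0.04.

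Of 12 measured keratins of the hair shaft and nail, 1 fell (8.33%), against 4.68% of all genes, and the median difference was -0.06. That gene was Krt36, a type I hair and nail keratin, at 0.01, -0.05, -0.01, -0.11 and -0.08 in immunized discs, against 0.40, 0.30 and 0.29 in naive discs. The immunized samples were nearly flat and all below the naive ones. Krt36 fell by 0.37 ± 0.07, or 1.3-fold (adjusted p = 0.0227); it was not called without immunized replicates 1 or 5 (adjusted p = 0.0627 and 0.052) or without naive replicates 1, 2 or 3 (0.0542, 0.0767 and 0.0575). Krt34 differed by -0.30 ± 0.13 (adjusted p = 0.147), with naive replicate 1 at 0.63 and the other naive samples at 0.04 and 0.13.

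Krt86, a type II keratin of the hair cortex, was the only keratin higher at an unadjusted p under 0.05. It stood at 0.17, 0.12, 0.49, -0.31 and 0.48 in immunized discs, against -0.25, -0.49 and -0.12 in naive discs. All immunized samples but replicate 4 lay above the naive samples. The difference was 0.47 ± 0.18 (adjusted p = 0.118), and 0.60 without immunized replicate 4 (adjusted p = 0.0489). No other omission of 1 sample called Krt86, with adjusted p up to 0.3.

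Among 8 keratins of the inner root sheath and companion layer, which encase the growing hair, 1 fell (12.5%), against 4.68% of all genes. The median was -0.04. Krt28 stood at -0.18, 0.02, -0.02, -0.14 and -0.10 in immunized discs, against 0.30, 0.25 and 0.45 in naive discs. Every immunized sample lay below every naive one. It fell by 0.42 ± 0.08, or 1.33-fold (adjusted p = 0.0261), from a probe set with an array below 4. Without immunized replicates 1 or 5 the adjusted p of Krt28 was 0.0745 and 0.0575, and without naive replicates 1, 2 or 3 it was 0.0583, 0.0741 and 0.073. Krt25 (-0.25 ± 0.09, adjusted p = 0.0999) and Krt27 (-0.22 ± 0.07, adjusted p = 0.0658), also type I genes of this layer and near neighbours of Krt28 on chromosome 11, did not overlap between the groups but did not pass.

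Of the 7 remaining keratins, Krt80 and Krt88 fell (28.6%, against 4.68% of all genes). Krt88 stood at -0.18, 0.13, -0.21, -0.13 and -0.19 in immunized discs, against 0.20, 0.24 and 0.46 in naive discs. Immunized replicate 2 was above the other immunized samples yet below the naive ones. The fall was 0.42 ± 0.10, or 1.34-fold (adjusted p = 0.0413); it was called only without immunized replicate 2 (adjusted p = 0.0115) among the omissions of 1 sample, and the others gave 0.0707 to 0.111. Krt42 had probe sets of opposite sign (-0.46 and 0.13). After quantile normalization Krt1, Krt28 and Krt88 did not pass (adjusted p = 0.0801, 0.0505 and 0.0806), and in the trended and robust model Krt1 and Krt36 did not (0.0572 and 0.08).

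Genes whose products anchor keratin filaments were then taken as a list. Of 18 measured genes of desmosomes and keratin linkers, 3 fell (16.7%) and none rose, against 4.68% and 4.46% of all genes. Differences were negative in 17 of them, against 10208 of 18193 over all genes. The median was -0.37, against -0.04 over all genes. At an unadjusted p under 0.05, 7 were lower and 1 was higher, against 18.2% and 12.9% of all genes. The count that fell was 1 after quantile normalization and 7 without immunized replicate 2; it was 0 without naive replicate 2 and 1 in each of the other 6 omissions of a sample. Dsc3, a desmosomal cadherin of stratified epithelia, stood at -0.21, 0.12, -0.17, -0.23 and -0.18 in immunized discs, against 0.67, 0.85 and 1.03 in naive discs. Apart from replicate 2 the immunized samples were almost level, and all lay below the naive samples. Dsc3 fell by 0.98 ± 0.11, or 1.98-fold (adjusted p = 0.00811), and lost its call in 1 of the 8 omissions of a sample, that of naive replicate 2 (adjusted p = 0.0521), and in the trended and robust model (adjusted p = 0.0527).

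Dsg2, the desmosomal cadherin of simple epithelia, stood at -0.26, 0.22, -0.25, -0.62 and -0.77 in immunized discs, against 0.36, 0.55 and 0.95 in naive discs. Replicates 2 and 5 were again the highest and the lowest immunized samples. Dsg2 fell by 0.96 ± 0.22 (adjusted p = 0.0367), and Evpl, which encodes envoplakin, a linker of keratin to the cornified envelope, by 0.71 ± 0.16 (adjusted p = 0.0348). Each of these was called in 1 of the 8 omissions, that of immunized replicate 2, and neither after quantile normalization (adjusted p = 0.0527 for Dsg2 and 0.0809 for Evpl).

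Dsp encodes desmoplakin, the protein that ties keratin filaments to the desmosome. It stood at -0.23, 0.65, -0.38, -1.10 and -1.53 in immunized discs, against 0.42, 0.83 and 1.00 in naive discs. As in Krt8 and Krt18, immunized replicate 2 lay among the naive samples and the other immunized samples below them. The difference was -1.27 ± 0.43 (adjusted p = 0.0882), and without immunized replicate 2 it was -1.56 (adjusted p = 0.0162). No other omission of 1 sample called Dsp, with adjusted p up to 0.196. Jup, which encodes plakoglobin, differed by -0.37 ± 0.13 (adjusted p = 0.0929). Pkp1, a plakophilin, which was named after its values were seen, differed by -1.23 ± 0.40 (adjusted p = 0.0812).

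**Figure D4:**
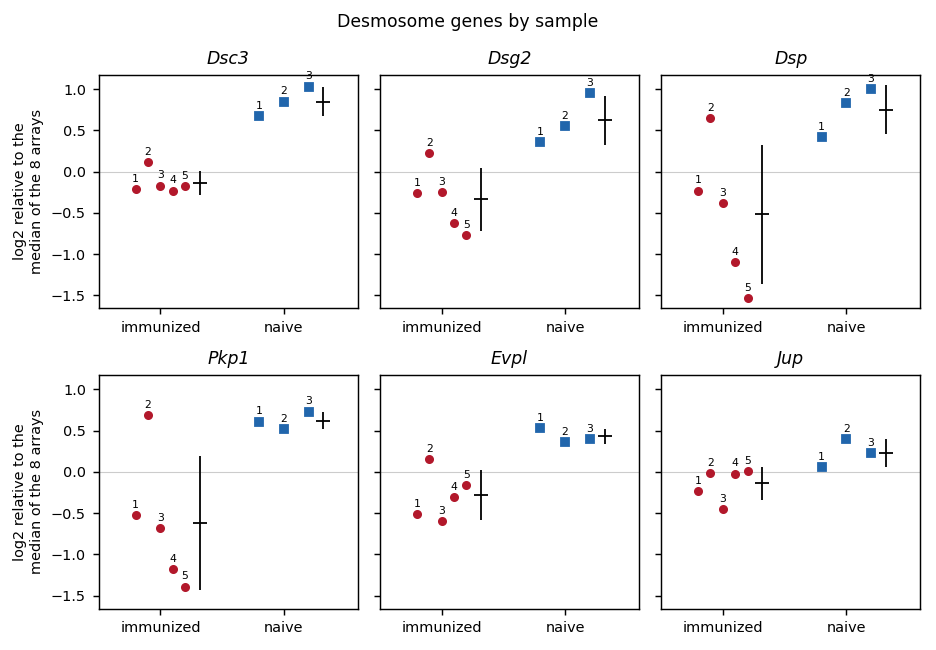
Log2 values, centred on each gene's 8-array median, of Dsc3, Dsg2, Dsp, Pkp1, Evpl and Jup in each immunized and naive sample (points, numbered by replicate), with group mean and SD. Dsc3 shows level immunized points below all naive points, whereas Dsp and Pkp1 show immunized points spread from the naive range down to -1.53 and -1.39.

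Other structural and regulatory genes showed few calls, where 4.68% of all genes were called lower and 4.46% higher. Of 16 other intermediate filament genes, only Bfsp1, a filament protein of the eye lens, passed (-0.42 ± 0.09, adjusted p = 0.032), and the list's median was 0.03. Vim, the vimentin of mesenchymal cells and also of nucleus pulposus cells, differed by -0.22 ± 0.13 (adjusted p = 0.269). Of 12 epithelial regulators and junction genes, Trp63, which encodes the basal keratinocyte factor p63, fell by 0.42 ± 0.11 (adjusted p = 0.0495) and the median was -0.07. Bfsp1 and Trp63 were each called in 2 of the 8 omissions of a sample, with adjusted p up to 0.0844 and 0.139, and neither passed after quantile normalization (0.0657 and 0.0706).

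Markers of the tissues a disc sample could hold were read beside the keratins. Of the cartilage and annulus genes, 9 of 10 had at least 1 probe set at a level of 8 or more in its lowest array, and so did all 5 skeletal muscle markers; further probe sets of Sox9, Ckm and Mb were at 4 to 8. The nucleus pulposus and notochord list also held T, Tbxt and Noto, which were not among the genes measured. Of its 12 measured genes other than keratins, none passed the threshold in limma. Of these, 7 were lower at an unadjusted p under 0.05, against 18.2% of all genes. In 4 of the 12 (33.3%) every immunized sample lay below every naive sample, against 14.0% of all genes. All 12 differences were negative, against 10208 of 18193 over all genes. The median was -0.43, against -0.04 over all genes. Among them Shh, which encodes a notochordal signal, differed by -0.29 ± 0.11 (adjusted p = 0.105). Without immunized replicate 2, 6 of the 12 were called lower, and in every other omission of a single sample none was. Omitting immunized replicate 2 also raised the lower calls over all genes from 851 to 1710.

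Of the 10 cartilage and annulus genes, 3 fell (30.0%), against 4.68% of all genes. They were Col11a2 (-1.26 ± 0.27), Sox9 (-0.83 ± 0.19) and Col9a1 (-1.75 ± 0.44), with adjusted p of 0.0306, 0.0336 and 0.0428. The list's median was -0.75, against -0.04 over all genes. After quantile normalization none of the 10 passed, with adjusted p of 0.0557 for Col11a2, 0.0505 for Sox9 and 0.0862 for Col9a1. The count was 6 without immunized replicate 2, 2 without immunized replicate 3 and 0 in each of the other 6 omissions of a sample. The cartilage median by sample lay between -0.99 and 0.18 in immunized and between 0.29 and 0.45 in naive samples, with immunized replicate 2 highest among the immunized, as in the simple keratins. The lowest immunized sample was replicate 3 for cartilage and replicate 5 for the simple keratins. The nucleus pulposus and notochord median was -0.08, 0.12, -0.34, -0.12 and -0.42 in immunized replicates 1 to 5. In naive replicates 1 to 3 it was 0.16, 0.27 and 0.31. There replicate 2 was highest and replicate 5 lowest of the immunized samples, as in the simple keratins.

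Of 20 epidermal genes other than keratins, 3 fell, against 4.68% of all genes. The list's median was -0.08, against -0.04 over all genes. Slurp1 and Sbsn, secreted products of keratinocytes, and Dmkn, which encodes dermokine, fell, with differences of -2.32 ± 0.39, -1.89 ± 0.40 and -1.44 ± 0.35 (adjusted p = 0.0191, 0.0298 and 0.0388). Slurp1 stood at -0.44, 0.44, -0.87, -0.71 and -1.71 in immunized discs, against 1.78, 1.45 and 1.74 in naive discs. Its immunized samples had the same extremes as Krt19, with replicate 2 highest and replicate 5 lowest, and the same held for Sbsn and Dmkn. Slurp1 kept its call in 4, Sbsn in 1 and Dmkn in 2 of the 8 omissions of a sample. After quantile normalization Slurp1 and Sbsn passed and Dmkn did not (adjusted p = 0.0504). Only 2 of the 20 epidermal genes, Sbsn and Dmkn, had a probe set at a level of 8 or more. The structural genes of the cornified layer Lor, Flg and Ivl, named after their values were seen, differed by -0.11, 0.15 and -0.14, and Krtdap by -0.06.

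Of 14 hair follicle genes none passed in limma, and 2 were lower and 1 higher at an unadjusted p under 0.05. Over all genes those shares were 18.2% and 12.9%. The list had a median of -0.06 and no gene with a probe set at a level of 8 or more. Of 9 gland and mesothelium genes, Prom1 was higher (1.33 ± 0.33) and none was lower, against 4.46% and 4.68% of all genes. Prom1 was called in 1 of the 8 omissions, and not after quantile normalization (adjusted p = 0.0554). Skeletal muscle and erythroid lists had 0 calls of 5 and of 3 genes in limma, with 1 muscle gene lower and no erythroid gene past an unadjusted p of 0.05.

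Inflammatory cell markers moved the other way. Of 5 macrophage markers, 3 rose, against 4.46% of all genes. They were Itgam (1.81 ± 0.29), Mpeg1 (1.39 ± 0.24) and Adgre1 (1.45 ± 0.26), with adjusted p of 0.0164, 0.0195 and 0.0223. Each kept its call in 5 of the 8 omissions of a sample. The other members, Cd68 (0.60 ± 0.34, adjusted p = 0.269) and Csf1r (0.14 ± 0.19, adjusted p = 0.645), overlapped between the groups and did not pass. Of 5 neutrophil markers, 3 rose, against 4.46% of all genes. However, 0 passed after quantile normalization and 0 without immunized replicates 1, 3 or 5 or naive replicates 2 or 3. The neutrophil count was 2 without immunized replicate 4, 1 without naive replicate 1 and 4 without immunized replicate 2. Across immunized samples Itgam, counted as a macrophage marker, kept the order of the neutrophil marker Mmp8, with replicates 3 and 5 highest. Adgre1 was highest in replicate 1 and Mpeg1 in replicate 4. The macrophage median was 0.62, -0.03, 0.18, 0.71 and 0.19 in immunized replicates 1 to 5, against -0.65, -1.10 and -1.28 in naive replicates 1 to 3. Immunized replicate 2, highest in the simple keratins, was lowest of the immunized samples here. The part of nucleus pulposus, cartilage, epidermal and inflammatory cell content in the keratin differences was not tested.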

How the data were processed

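The values deposited by the authors are on a log2 scale and come from RMA on Affymetrix arrays, per the submitters' processing notes, which name no version. Each probe set's median was 0 to within 5.0e-07, a centring that the labels do not record. It leaves differences between groups intact and removes absolute level. A coarse level of each probe set's lowest array was read from the spacing of the printed digits. Array medians lay between -0.012 and 0.016. Precision is limited by the 8 arrays.

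Probe sets naming 1 gene in the platform annotation were used, controls left out, and each gene was the mean of its probe sets. Immunized was compared with naive in limma 3.58.1 (R 4.3.3; two-sided lmFit and eBayes without covariates), Benjamini-Hochberg adjusted over 18193 genes, at a threshold of 0.05. The fit was checked on simulated data. Errors beside differences are limma's standard errors (SE).

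The members and lists were chosen with earlier results of these data known. Named genes are the simple epithelial keratins, keratins past the threshold and the 3 with the largest absolute moderated t of each role. Up to 4 called members of each other list are added, and always Shh, Vim, Dsp and Jup. T or Tbxt was also to be named always, but was not measured. Others, such as Cd68, Csf1r, Krtdap, Krt12, Krt17, Krt23, Krt76, Krt77 and Krt81, are named outside this rule, after values were seen. Alternatives were other scalings, probe set and level filters, a trended and robust model, a replicate block, thresholds and omitted samples.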

Additional observations from a re-analysis of the deposited data

Results flagged for a closer look

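In 4 of 48 named genes, 1 of the 5 immunized samples stood apart, with a gap to its nearest neighbour above 0.71 of the group's range. Chance flags about 1 in 20 groups. Immunized replicate 2 was the high sample in Krt2 (0.14, gap 0.78 of the range), Krt88 (0.13, gap 0.77) and Dsc3 (0.12, gap 0.83). Immunized replicate 3 was the high sample in Krt27 (0.02, gap 0.72), where the immunized values span a very narrow range.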

How the results depend on the processing

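The direction of each simple epithelial keratin was kept in every alternative, and the median difference over them lay between -1.64 and -1.14 apart from the omissions of 1 sample. Against 8 keratins lower, 5 were lower after quantile normalization and 5 in the trended and robust model; 2 and 3 of these were other keratins, against 5. With the replicate block 0 keratins were lower in limma (0 simple, 0 other, 9 at an unadjusted p under 0.05). Without both samples with joined numbers 0 keratins were lower (13 unadjusted), and 0 of all genes passed. At a threshold of 0.01, 1 keratin was lower, a simple one, and 0 others; at 0.1, 8 others were lower, and 3 with probe sets tested singly. Leaving out 1 sample gave 0 to 10 keratins lower and 0 to 1 higher, 0 to 5 simple keratins lower, and 0 to 5 other keratins lower with 0 to 1 higher. Over all genes, quantile normalization gave 541 higher and 369 lower calls, against 812 and 851. Same-numbered samples had correlated deviations of -0.047, 0.243 and -0.101, so the numbers were not taken as pairs; the block cut the calls over all genes to 7. Differences near 0 turned sign in Krt2 (0.00 after quantile normalization, 0.01 after median centring, 0.02 with the replicate block, -0.08 to 0.07 when 1 sample was left out), in Krt6a (0.18 for its probe set with the lowest p) and in Krt13 (0.04 without probe sets with an array below 4). Causes of these changes were not tested. Centring removed the level that would show how far each signal lay above background. Omitting naive replicate 1 with immunized replicate 2 was chosen after the data were seen.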
